A study of Mus musculus with 38 samples.

Results

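Tenm4 and Tenm3 encode teneurins, and their probes were followed in Neuro2A cells, a mouse neuroblastoma line, over 24 h of all-trans-retinoic acid. They are 2 of the 473 genes named on an oligonucleotide array of 576 probes of mouse KIAA genes, long and mostly brain-derived cDNAs. Each gene had 1 probe, matched by symbol in the platform annotation: probe 429 for Tenm4 (gene ID 23966, chromosome 7) and probe 300 for Tenm3 (gene ID 23965, chromosome 8). The pair was chosen by their measured levels over all 6 times: Tenm4 lay at the lowest value of the arrays early and above it late, while Tenm3 was lower late than early. Their levels, array counts and changes are therefore given as a description, with no test, and support nothing on their own. Another teneurin, Tenm2 (probe 468), was also measured and took no part in the choice, so it was tested. Tenm1 is not analysed here.

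The course held 38 arrays, each a single-colour Cy5 hybridisation of polyadenylated RNA. At 0 h there were 7 control arrays, of untreated cells taken after 48 h of preculture in 10% serum. There were 5 arrays each at 1 and 3 h and 7 each at 6, 12 and 24 h after a change to medium with 20 uM retinoic acid and 2% serum. Every replicate pooled 4 to 6 plates. The labels do not say whether replicates were separate cultures, so p-values measure the spread between these arrays, which may be technical. A control for the medium change or the lower serum is not analysed here, so at every time against 0 h retinoic acid, serum and time in culture cannot be told apart. Of 29 listed neuronal marker symbols 3 were measured, the neurofilament Nefh at a median place of 93.2 in percent from the dimmest probe on the control arrays, and the transcription factors Myt1 at 62.4 and St18 at 42.3. Of 25 listed glial and stromal markers 2 were measured, Pxdn at a median place of 91.1 and Phldb1 at 68.1 on the same arrays. Of 20 listed retinoic acid target genes 0 were measured, so the response to the ligand was not checked on a known target.

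Teneurins are large transmembrane proteins with a short intracellular part and a long extracellular part that holds EGF-like repeats, through which they pair as dimers. They bind teneurins on other cells and latrophilins, adhesion receptors of the Adgrl family, and in this way take part in the matching of axons to their target cells and in synapse formation. In the mouse, Tenm3 is known for the wiring of visual and hippocampal circuits, and Tenm4 for myelination by oligodendrocytes. Retinoic acid acts through nuclear receptors that bind pairs of short half-sites near their target genes.

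The promoter windows of both genes are shown because the treatment is a ligand of DNA-binding receptors. They are RefSeq sequences of assembly GRCm38.p6, from 250 bases before to 50 bases after a gene start, written 5′ to 3′ along the gene, and probe and promoter were not linked by any measurement here. Tenm3 had 1 window on the minus strand (chr8:48674641-48674940) and Tenm4 had 2 on the plus strand (chr7:96170994-96171293 and chr7:96211421-96211720). Capitals mark the half-sites searched, AGGTCA and AGTTCA, on either strand (TGACCT and TGAACT as read on the printed strand).
Tenm3: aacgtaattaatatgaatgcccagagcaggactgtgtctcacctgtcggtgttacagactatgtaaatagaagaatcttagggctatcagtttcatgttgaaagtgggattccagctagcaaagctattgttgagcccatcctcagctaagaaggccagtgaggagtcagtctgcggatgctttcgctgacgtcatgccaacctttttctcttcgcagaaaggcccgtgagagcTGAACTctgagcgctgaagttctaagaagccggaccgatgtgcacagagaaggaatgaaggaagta
Tenm4, first window: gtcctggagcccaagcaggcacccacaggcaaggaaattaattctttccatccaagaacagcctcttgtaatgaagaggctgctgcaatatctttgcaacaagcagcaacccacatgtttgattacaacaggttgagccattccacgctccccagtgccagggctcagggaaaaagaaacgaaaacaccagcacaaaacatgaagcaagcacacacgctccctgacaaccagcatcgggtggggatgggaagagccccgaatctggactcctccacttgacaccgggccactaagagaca
Tenm4, second window: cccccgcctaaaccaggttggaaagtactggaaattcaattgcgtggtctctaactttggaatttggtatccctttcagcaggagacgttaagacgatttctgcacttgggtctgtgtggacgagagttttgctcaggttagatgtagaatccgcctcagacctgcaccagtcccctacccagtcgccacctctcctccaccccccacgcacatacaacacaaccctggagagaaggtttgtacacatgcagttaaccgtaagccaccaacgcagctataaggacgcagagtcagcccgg
The Tenm3 window covers 1 annotated start, and other starts of the gene may lie elsewhere. It held 1 match, TGAACT at base 235 counted from its 5′ end, and the Tenm4 windows held 0. Of all 32851 windows of this length in the table, 27.7% held either half-site, so 1 match in 3 windows lies near that background. A match is a run of letters and was not measured as a bound site.

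Tenm4 was a dim probe that left the bottom of the array late in the course. The deposited intensity has a lowest value of 0.540 that 30 of the 38 arrays share, called the floor here. For a floor value, the true level may lie anywhere below it. The arrays measured whole cultures, in which fewer cells of a type and less RNA per cell cannot be told apart. On the control arrays Tenm4 was at the floor on 4 of 7, with a lowest value and median of 0.540 and a highest value of 0.979. At 1 h it read 0.540 on all 5 arrays, and at 3 h it read 0.540 on all 5 as well. At 6 h it was at the floor on 3 of 7 arrays, with a median of 0.748 and a highest value of 0.889. Early in treatment no array stood above the floor, and at 6 h the arrays were divided between the floor and values just above it.

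At 12 h Tenm4 ranged from 0.540 to 1.18 with a median of 1.09, and 1 of 7 arrays, replicate 5, was at the floor. At 24 h it ranged from 0.599 to 1.34 with a median of 0.901, and 0 of 7 arrays were at the floor. Only 3 of these 7 arrays reached the floor on any probe. Both groups overlapped the controls, of which replicates 2, 3 and 6 stood above the floor, at 0.979, 0.668 and 0.679. Late arrays (12 and 24 h together) lay above the early ones (1 and 3 h) on 13 of 14 arrays.

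**Figure D1:**
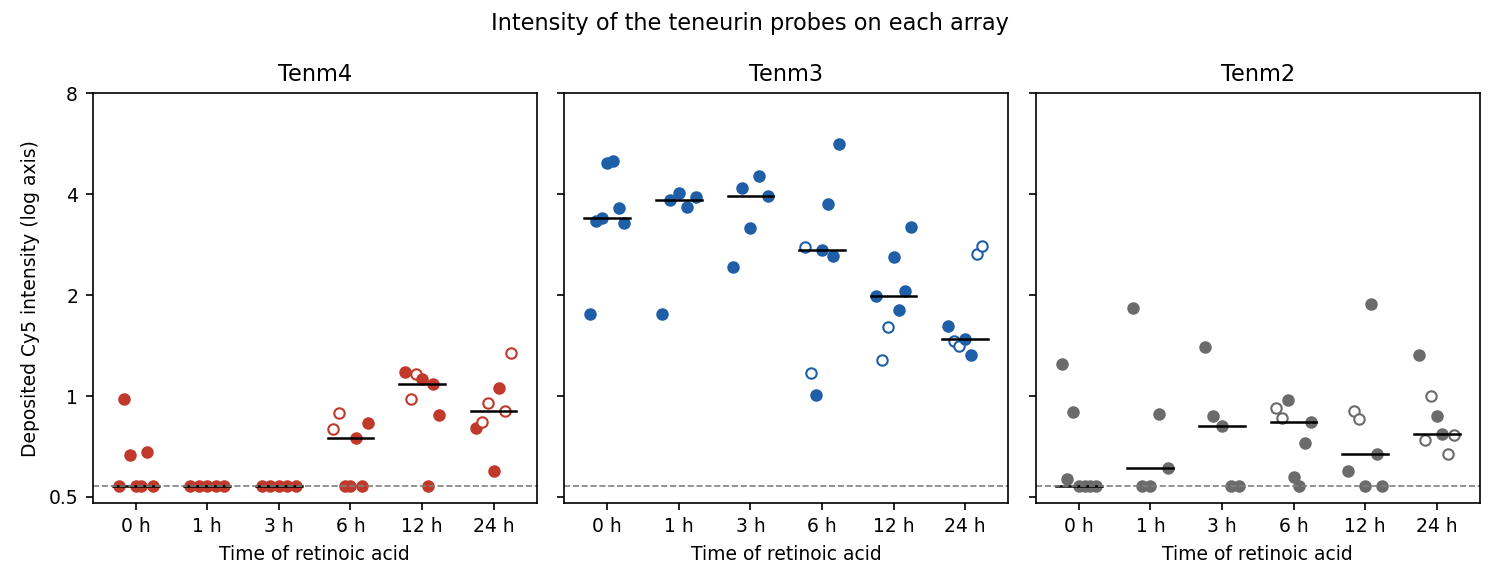
Deposited Cy5 intensity (log axis) of the Tenm4, Tenm3 and Tenm2 probes on each of the 38 arrays by time of retinoic acid; black bars are group medians, the dashed line is the floor of 0.540, and open points are arrays on which no probe reached the floor. Tenm4 lies on the floor on all 10 arrays at 1 and 3 h and on 1 of 14 at 12 and 24 h, while the Tenm3 medians are 1.99 at 12 h and 1.48 at 24 h, against 3.39 at 0 h.

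The floor was not reached by every array, which bears on these counts. Of the 14 late arrays 8 reached it, and on 7 of those 8 Tenm4 stood above it. Of the 7 arrays at 6 h 5 reached it. Over the whole array 83 probes were at the floor on all 10 early arrays, 13 of them with a named gene. On the 8 late arrays that reached the floor, the median one of these 83 was at the floor on 8. Tenm4 was the 1 probe of the 83 that was at the floor on at most 1 of them. The count describes the course by which Tenm4 was chosen.

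Tenm3, by contrast, was among the brighter probes on nearly all arrays. At 0 h it ranged from 1.76 to 5.05 with a median of 3.39. At 1 h it read 1.76, 3.84, 4.04, 3.67 and 3.93, and at 3 h 2.43, 4.18, 3.18, 4.53 and 3.96. Replicate 1 held the lowest value in each of these 3 groups, and the other arrays lay above 3.

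At 6 h the Tenm3 probe spread most, from 1.01 on replicate 3 to 5.64 on replicate 7, with a median of 2.73. At 12 h it ranged from 1.28 to 3.19 with a median of 1.99. At 24 h it ranged from 1.32 to 2.81 with a median of 1.48. The 24 h and 12 h values overlapped the controls, whose lowest array was at 1.76. Tenm3 was at the floor on 0 of 38 arrays.

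The spread of all probes on an array was smaller late in the course. Measured as the interquartile range in log2 units before normalisation, its median was 1.53 for control arrays, 1.53 for 1 h arrays, 1.67 for 3 h arrays, 1.22 for 6 h arrays, 1.29 for 12 h arrays and 0.885 for 24 h arrays. On the control arrays Tenm4 was mostly dimmer and Tenm3 brighter than most probes. Readings that do not carry the range were therefore added: the place of a probe within its array, and values after quantile normalisation, which gives all arrays the same distribution.

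By place within the array, in percent from the dimmest probe, the median of Tenm4 was 18.3 on control arrays, 13.5 on 1 h arrays, 15.7 on 3 h arrays, 25.6 on 6 h arrays, 59.3 on 12 h arrays and 45.7 on 24 h arrays. A probe at the floor shares its place with all others there, so the places of floor values carry no order. The early arrays lay between 12.7 and 17.9. The late arrays lay between 11.1 and 76.1, with replicate 5 at 12 h again the lowest and replicate 4 at 24 h next, at 21.2. The late medians thus lay near the middle of the arrays and the early ones near the bottom.

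The median place of Tenm3 was 94.8 on control arrays, 92.7 on 1 h arrays, 93.6 on 3 h arrays, 93.4 on 6 h arrays, 88.6 on 12 h arrays and 85.1 on 24 h arrays. Late arrays ranged from 73.1 to 96.4 and early arrays from 84.5 to 96.9. The medians lay closer together than the arrays within the 24 h group, and replicates 6 and 7 at 24 h (94.3 and 96.4) stood where most control arrays did. Replicate 3 at 6 h, at 55.6, was the lowest of the 38 arrays.

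**Figure D2:**
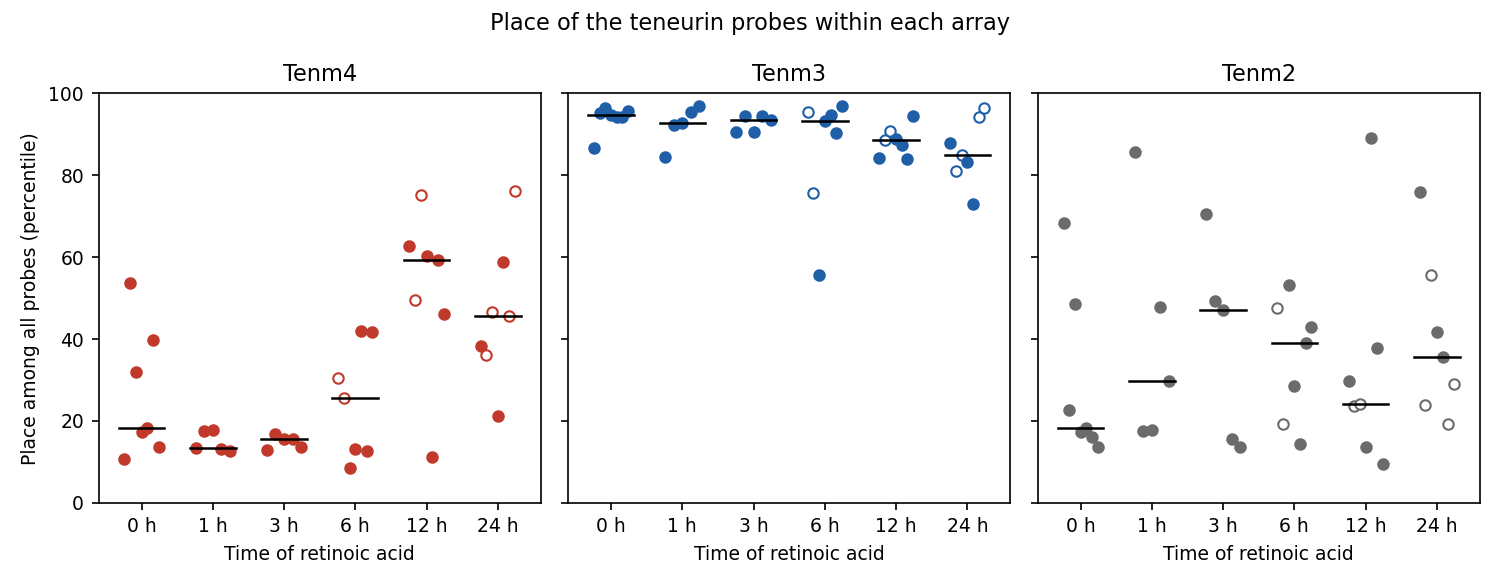
Place of the Tenm4, Tenm3 and Tenm2 probes among the 576 probes of each array, in percent from the dimmest, by time; bars are medians and open points are arrays that never reach the floor. Tenm4 medians are 59.3 at 12 h and 45.7 at 24 h against 18.3 at 0 h, while Tenm3 lies at 73.1 or above on all arrays except replicate 3 at 6 h (55.6).

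On the quantile-normalised log2 scale, which is used for all log2 values from here on unless another is named, the group means of Tenm4 were -0.60 ± 0.29 (SD) for the 7 controls, -0.80 ± 0.012 for the 5 arrays of 1 h, -0.80 ± 0.0071 for the 5 of 3 h, -0.63 ± 0.22 for the 7 of 6 h, -0.02 ± 0.43 for the 7 of 12 h and -0.20 ± 0.44 for the 7 of 24 h. The small SD at 1 and 3 h is that of floor values, not of a measured level. In order of level, 12 h was highest, then 24 h, 0 h and 6 h, with 1 and 3 h last and without an order between them. Every pair of neighbours in that order had ranges of mean ± SD that overlapped.

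The log2 change of Tenm4 against 0 h, with the SE of a limma fit of all probes, was -0.20 ± 0.18 for 1 h, -0.20 ± 0.18 for 3 h, -0.03 ± 0.16 for 6 h, 0.57 ± 0.16 for 12 h and 0.39 ± 0.16 for 24 h. At 12 h, 6 of 7 arrays stood above the control mean, and at 24 h likewise 6 of 7. Of the 576 probes, 4 had a larger change at 12 h and 25 at 24 h. Without control replicate 2, the highest control array, the 1 h and 3 h values were each -0.10. Leaving out replicate 7 of the 24 h arrays gave a 24 h value of 0.26. Late minus early the fitted difference was 0.68 ± 0.13, and 0.79 on the scale as deposited. At the floor were 4 of 7 controls, all 10 early arrays, 3 of 7 arrays at 6 h and 1 of 7 at 12 h. These differences, and the changes at 1, 3, 6 and 12 h, are therefore neither a measured fold nor a limit. The 24 h change, with 0 of 7 arrays at the floor, still rests on control values partly at the floor and is not a measured fold.

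Group means of Tenm3 were 1.59 ± 0.28 (SD) for the 7 controls, 1.48 ± 0.40 for the 5 arrays of 1 h, 1.44 ± 0.17 for the 5 of 3 h, 1.25 ± 0.71 for the 7 of 6 h, 1.15 ± 0.24 for the 7 of 12 h and 1.09 ± 0.48 for the 7 of 24 h. The order of levels was that of the times, from 0 h down to 24 h, and again all neighbours had overlapping ranges of mean ± SD. Against 0 h the log2 change was -0.11 ± 0.25 (SE) for 1 h, -0.15 ± 0.25 for 3 h, -0.34 ± 0.23 for 6 h, -0.44 ± 0.23 for 12 h and -0.50 ± 0.23 for 24 h. The controls' mean lay above 6 of 7 arrays at 12 h and 6 of 7 at 24 h. Replicate 3 at 6 h carried much of the 6 h value, which was -0.14 without it. Leaving out replicate 1 of the 1 h arrays gave a 1 h value of 0.03. Late minus early the change was -0.34 ± 0.18, with 11 of 14 late arrays below the early mean.

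The size of the Tenm3 change depended on whether the range of the arrays was kept. On the values as deposited it was -0.99 at 24 h and -0.88 late minus early. Quantile normalisation gave the -0.50 and -0.34 above, and adding the array's range to the model gave -0.41 and -0.26. Tenm4 depended on it less, with 0.53 as deposited and 0.35 with the range in the model at 24 h, and 0.79 and 0.64 late minus early. Without the 8 arrays that never reach the floor, the 24 h change was 0.26 for Tenm4 and -0.83 for Tenm3, and late minus early was 0.61 for Tenm4 and -0.53 for Tenm3.

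**Figure D3:**
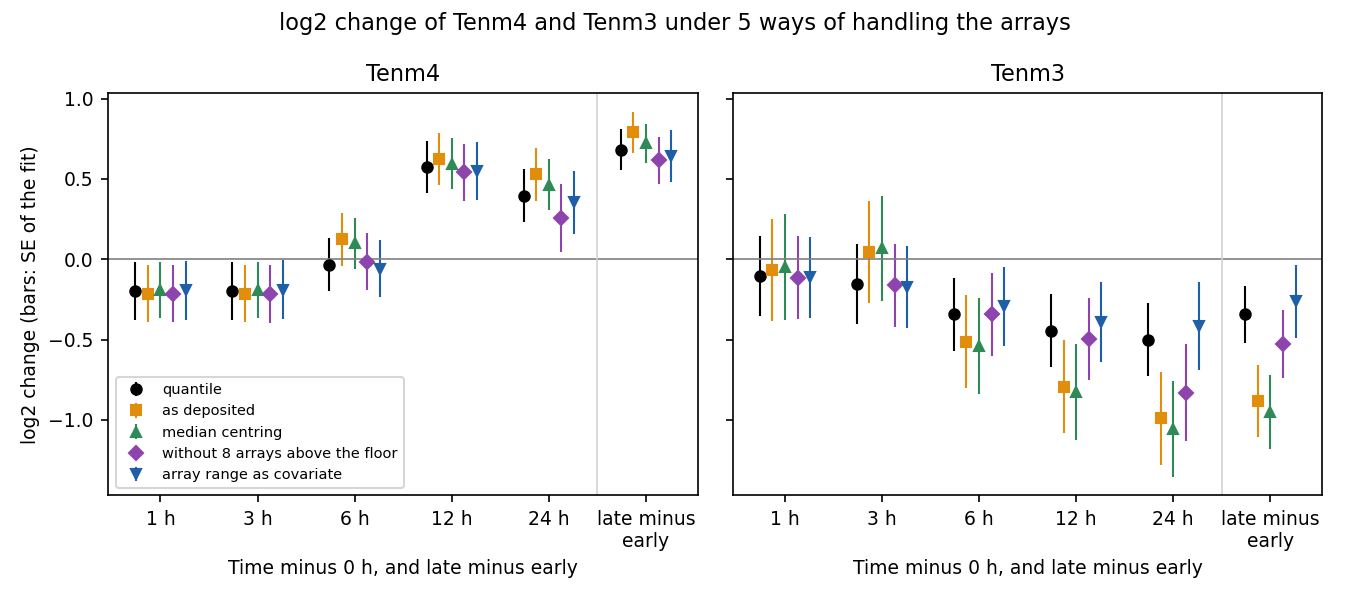
log2 change of Tenm4 (left) and Tenm3 (right) at each time minus 0 h and late minus early, under 5 ways of handling the arrays; bars are the SE of the fit. Tenm4 lies above 0 at 12 and 24 h and Tenm3 below 0 at 6, 12 and 24 h in all 5, while Tenm3 at 24 h spans -0.41 to -1.06.

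The 2 probes can be set against each other within an array as the log2 ratio of Tenm4 to Tenm3, of which the change has a meaning and the level none, since it compares different probes. Its mean was -2.19 ± 0.35 (SD) for the 7 controls, -2.28 ± 0.41 for the 5 arrays of 1 h, -2.24 ± 0.17 for the 5 of 3 h, -1.88 ± 0.59 for the 7 of 6 h, -1.17 ± 0.50 for the 7 of 12 h and -1.29 ± 0.45 for the 7 of 24 h. With Tenm4 at the floor on all arrays of 1 and 3 h and on 4 of 7 controls, the ratio there is only an upper limit, and whether it changed up to 3 h cannot be read. It was higher at 12 and 24 h. Late arrays ranged from -1.88 to -0.40 and early arrays from -2.80 to -1.73, so the groups overlapped.

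The choice rested on levels and floor counts, not on how the 2 genes vary together among arrays of 1 group, so that was tested. The deviations of Tenm3 and Tenm4 from their group means had a Pearson r of 0.31 over 38 arrays (two-sided permutation test within groups, p = 0.0585, adjusted p = 0.234 over 4 relations) and a Spearman rho of 0.23 (permutation p = 0.194). The correlation was above 0 and did not pass. Group means were removed, so it cannot bear on the opposite courses over time. Tenm4 was at the floor on 18 of 38 arrays, among them all arrays of 1 and 3 h, where it had no measured variation. Without the 2 arrays farthest from the Tenm3 median, r was 0.12.

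**Figure D4:**
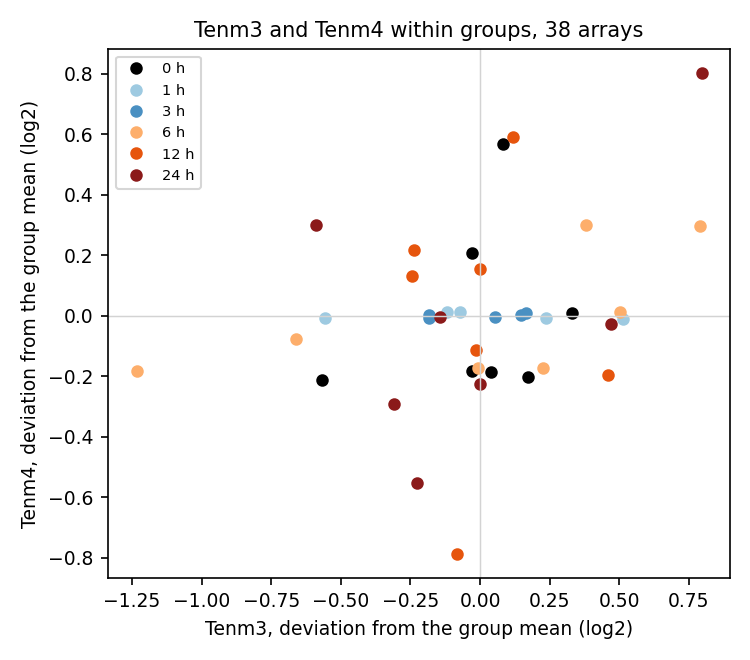
Deviation of Tenm4 (vertical) against that of Tenm3 (horizontal) from the mean of their group on the normalised log2 scale, 1 point for each of 38 arrays, coloured by time. The points spread without a clear line (r = 0.31), and the arrays at 1 and 3 h lie flat because Tenm4 was at the floor there.

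The same deviations were set against those of the array's interquartile range, chosen after the data were seen. After quantile normalisation r was -0.07 for Tenm4, 0.10 for Tenm3 and -0.09 for Tenm2 (permutation p = 0.751, 0.612 and 0.703; adjusted p = 0.751 for each; rho 0.07, 0.02 and -0.20, permutation p = 0.697, 0.930 and 0.202). Without the 2 arrays of most distant range these r were -0.17, -0.042 and -0.26. On the values as deposited r was -0.23 for Tenm4 (permutation p = 0.306), 0.52 for Tenm3 (p = 0.00245) and -0.39 for Tenm2 (p = 0.0213). These as-deposited p-values were not adjusted. Before normalisation, then, arrays with a narrower range tended to lower Tenm3 values within their own group. A narrower range by itself lowers the log2 values of bright probes and raises those of dim ones. How far this set the r as deposited was not tested, since no other probes were compared. That r is therefore no finding particular to the teneurins. Quantile normalisation takes out the range, so a small r after it is no finding either.

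Tenm2, which like the others belongs to the teneurin family, passed none of the 3 tests. In deposited intensity it was dim and variable, with 7 control arrays between 0.540 and 1.25 (median 0.540). The 1 h arrays read 1.83, 0.540, 0.540, 0.881 and 0.611, and the 3 h arrays 1.40, 0.871, 0.811, 0.540 and 0.540. Later medians were 0.836 for 6 h (highest 0.976), 0.672 for 12 h (highest 1.89) and 0.769 for 24 h (highest 1.33). It was at the floor on 11 of 38 arrays. Replicate 1 was the highest array at 0, 1, 3 and 24 h, and replicate 5 at 12 h, the array with Tenm4 at the floor, held the highest Tenm2 value of all. The log2 change was 0.19 ± 0.29 at 24 h (limma adjusted p = 0.794) and -0.09 ± 0.22 late minus early (adjusted p = 0.897; 0.06 as deposited), and the F test over the course gave an adjusted p of 0.983. Single arrays decided these values: 24 h was 0.03 without replicate 1 of that time and 0.33 without control replicate 1. Late minus early was 0.07 without replicate 1 at 1 h, -0.0027 without replicate 1 at 3 h and -0.23 without replicate 5 at 12 h, and 9 other single arrays moved it by over 1.5 times.

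Further genes were taken from lists of 11 teneurin partners, 135 neuronal adhesion genes and 89 axon guidance genes, of which 2, 10 and 8 were measured. The adhesion and guidance lists are general and are not lists of genes that teneurins bind. At 24 h against 0 h, 1 of these 20 genes passed (limma, adjusted p under 0.05 over all 576 probes): Ablim1, an actin-binding LIM protein, which fell. The background for calls in either direction was 1.04% of probes at 24 h (0.694% higher, 0.347% lower), so a count of 1 in 20 rests on 1 gene. Late minus early 0 of 20 passed in limma, where 0.347% of probes were called. An unadjusted limma p under 0.05 was found for 1 of the 20 and for 78 of all 576 probes. Over the course 1 passed the F test, again Ablim1, where 1.04% of probes were called. The median log2 change of the 20 was 0.03 at 24 h and 0.01 late minus early, and that of all probes was -0.01 and -0.0017.

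Ablim1 ranged from 0.540 to 1.17 in deposited intensity on the 24 h arrays, with a median of 1.01, and from 1.41 to 3.20 with a median of 1.62 on the control arrays, without overlap. Deposited values carry the narrower range of the 24 h arrays. On the normalised log2 scale its mean was -0.17 ± 0.46 (SD) at 24 h and 0.73 ± 0.23 on the control arrays. The log2 change of Ablim1 at 24 h was -0.89 ± 0.20 (SE; limma adjusted p = 0.00968), and the course had an adjusted p of 0.0216. Late minus early it was -0.51 ± 0.15 (adjusted p = 0.0862). At times not among the tests counted above, it was -0.88 ± 0.20 at 6 h (limma adjusted p = 0.0429) and -0.67 ± 0.20 at 12 h (adjusted p = 0.393). The fall was thus not confined to 24 h. Adding the array range to the model ended the 24 h and course calls. The course call was also lost with the replicate number as a block and without control replicate 4 or 5.

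Both measured partners were dim or moderate and did not pass. Adgrl3, a latrophilin that binds teneurins, was at the floor on 16 of 38 arrays, with a log2 change of -0.10 ± 0.17 at 24 h (limma adjusted p = 0.801) and 0.03 ± 0.13 late minus early (adjusted p = 0.932). Unc5a, a netrin receptor of the family that joins teneurin and latrophilin complexes through FLRT proteins, was at 0.22 ± 0.17 (adjusted p = 0.585) and 0.06 ± 0.13 (adjusted p = 0.869).

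Among adhesion genes, Kirrel3, an immunoglobulin-type adhesion protein, was at 0.26 ± 0.14 and Nrcam, a cell adhesion molecule of the L1 family, at 0.20 ± 0.13 at 24 h (limma adjusted p = 0.565 for each). Pcdh10, a protocadherin, was at 0.08 ± 0.06 late minus early (adjusted p = 0.520), and Astn1, which acts in neuronal migration along glia, had a course adjusted p of 0.918. Among guidance genes, Plxna2, a semaphorin receptor, was at 0.63 ± 0.30 at 24 h (adjusted p = 0.565). The semaphorin Sema6d was at -0.50 ± 0.26 late minus early (adjusted p = 0.356) and Mical3, a flavoprotein that acts on the cytoskeleton, at -0.16 ± 0.13 (adjusted p = 0.591). None of these reached the threshold in these tests. Late minus early 12 of the 20 lay above 0, as did 285 of all 576 probes.

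**Figure D5:**
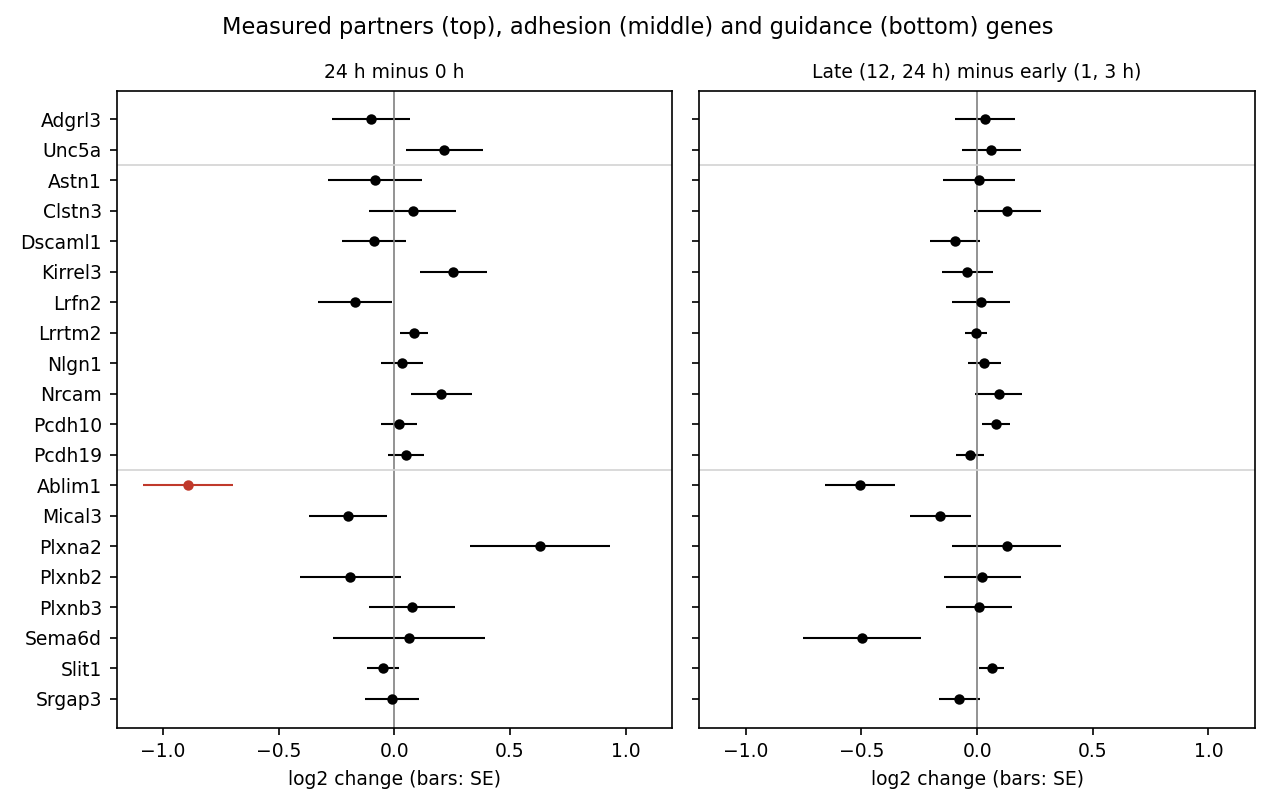
log2 change ± SE of the 20 measured teneurin partners, neuronal adhesion and axon guidance genes at 24 h minus 0 h (left) and late minus early (right). Ablim1 at 24 h (-0.89, red) is the 1 gene past the threshold in either panel, and the other 19 are drawn in black.

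The named genes whose values over the 38 arrays were most like those of each teneurin were ranked by Pearson correlation, as a description. For Tenm4 they were Tnrc6c, a protein of microRNA silencing (r = 0.74), the postsynaptic scaffold Tanc1 (0.73), Khnyn (0.68), the phosphatidate phosphatase Lpin1 (0.65) and Klhl29 (0.65). Within groups, with group means removed, these 5 had r from 0.49 for Lpin1 to 0.76 for Khnyn. Tenm4 was at the floor on 18 of the 38 arrays and Khnyn on 12. For Tenm3 they were R3hdm1 (0.81), the phospholipid enzyme Selenoi (0.78), the splicing factor Srrm2 (0.77), Virma of the RNA methylation complex (0.75) and the kinase Slk (0.75). Their within-group values ran from 0.77 for Srrm2 to 0.91 for R3hdm1. The same arrays chose both lists, so high within-group values are partly built in by the choice and are no separate support.

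Each list of 5 was drawn from 472 named genes, so the absence of a shared gene says nothing about the 2 teneurins. Arrays are what the points share, so an array that stands apart enters every such correlation. Srrm2, for one, was at -0.39 late minus early, near the Tenm3 value of -0.34, while R3hdm1 was at -0.01. Likeness to Tenm3 over arrays therefore did not go with a like course for R3hdm1. Between Tenm3 and Tenm4 themselves r was -0.04 over the 38 arrays. Teneurins are related in sequence, and whether either probe also captured another teneurin's RNA was not tested.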

How the data were processed

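The table deposited by the authors gives a linear intensity for each of 576 probes on 38 arrays. Its background correction, scaling and floor are not given in the sources used here, and probe sequences were not used. Between 54.5% and 55.0% of probes lay below 1 on every array. Per the labels' protocols, Phoretix read the intensity of each spot from the scans. Of 703 pairs of arrays 0 had identical values (highest Spearman correlation 0.961). No background or detection value was used, so the shared lowest value was the one sign of a probe without signal.

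Values were taken to log2 and, since array medians differed by 0.23, over a limit of 0.1, brought to one distribution by quantiles. The model over all probes came from limma 3.58.1 (R 4.3.3), with the 6 groups as the factor (32 residual degrees of freedom), with Benjamini-Hochberg adjustment over the 576 probes and a threshold of 0.05. The fit was run on simulated data with and without added changes. The permutation test was run there only on a pair built to correlate, so its p-values for uncorrelated or floor values were not checked. Correlations within groups used 100000 permutations of arrays within each group. The number of arrays limits the precision.

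Members and gene lists were chosen with earlier results of these data known. Of 576 probes 473 have 1 gene symbol, 0 several and 103 none. Named genes were the teneurins and their measured partners, every adhesion or guidance gene past the threshold, the 4 with the smallest p in each of the 3 tests, and the 5 most correlated with each member. The fit did not pair arrays by replicate number. Of 87 same-numbered pairs of arrays 35 had deviations correlated over 0.1, with a lowest value of -0.53. Their median r was 0.047, against -0.0037 for pairs of different number, and 10 of 38 arrays correlated best with an array of their own number. Whether a shared number links arrays was not tested. Alternatives are given at the end.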

Additional observations from a re-analysis of the deposited data

Results flagged for a closer look

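In groups of 5 or 7 arrays, a highest or lowest array was picked out when its gap to the next exceeded Dixon's 95% limit of the group's range. Of 78 group tests on the named teneurin, partner, adhesion and guidance genes 14 were so marked, where chance gives about 1 in 20. Values are normalised log2 intensity, and many of the groups are of dim probes whose other arrays lie at or near the floor.

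For the teneurins, Tenm3 on control replicate 1 was at 1.02, with the other controls between 1.56 and 1.92, and without it the Tenm3 change was -0.60 at 24 h. Tenm2 on replicate 5 at 12 h was at 1.17, with the others between -0.81 and -0.44. Tenm4 had 0 such arrays.

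Adgrl3 was highest on replicate 4 at 1 h (0.14), replicate 5 at 3 h (-0.68) and replicate 3 at 6 h (0.57). Kirrel3 was highest on control replicate 2 (-0.56), replicate 1 at 1 h (-0.075), replicate 3 at 6 h (0.36) and replicate 5 at 12 h (-0.60). Nrcam was highest on control replicate 5 (-0.45) and replicate 7 at 6 h (0.19), Pcdh10 on replicate 1 at 3 h (-0.67), Sema6d on control replicate 1 (1.08) and Unc5a on replicate 5 at 3 h (0.15). Replicate 3 at 6 h, marked for Adgrl3 and Kirrel3, is also the array with the lowest Tenm3 value.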

How the results depend on the processing

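The log2 changes of Tenm4 at 12 and 24 h and late minus early stayed above 0, and those of Tenm3 at 6, 12 and 24 h and late minus early below 0, under each of 8 alternatives and without each of the 38 arrays in turn. Those of Tenm3 at 1 and 3 h and of Tenm4 at 6 h changed sign in 1, 2 and 2 of the 8, and without 1, 0 and 2 single arrays. Tenm3 moved by over 1 SD as deposited (-0.99 at 24 h, -0.88 late minus early) and with median centring (-1.06 and -0.95), and neither setting removes the narrower range of the late arrays. With 1 added before log2, which shrinks changes of dim probes by construction, Tenm4 was at 0.26 at 12 h and 0.30 late minus early.

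Of the 20 adhesion and guidance genes, 2 passed late minus early as deposited and 2 with median centring (Pcdh10 and Ablim1 in each). With array weights 2 passed (Mical3 and Ablim1) and with trend and robust variances 1 (Ablim1), against 0 in the fit described. The same settings called 78, 65, 166 and 80 of all 576 probes, in that order, so the added calls were not particular to these lists. The cause was not tested. With the array range as a covariate 0 passed at 24 h and 0 over the course. With the replicate block 1 passed at 24 h, 0 late minus early and 0 over the course. Leaving out single arrays gave 1 at 24 h, 0 late minus early, and 0 to 1 over the course, where control replicates 4 and 5 each ended the call of Ablim1. Over all probes 2 to 63 passed at 24 h (6 in the fit described), 1 to 166 late minus early (2) and 2 to 62 over the course (6).

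The correlation of Tenm3 with Tenm4 within groups lay between 0.11 and 0.33 over 8 alternatives (0.31 with the replicate block), none of which passed by r, although with the block Spearman's rho was 0.38 (permutation p = 0.0277, not adjusted), and between 0.17 and 0.38 without single arrays, 5 of which brought p under 0.05 when left out. With array range, Tenm3 had r = 0.52 and Tenm2 r = -0.39 as deposited, and on normalised values Tenm3 had r = -0.042, against 0.10 over all arrays, without the 2 arrays of most distant range. Floor values limit Tenm4, which was at the floor on 18 of 38 arrays.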
